A study of Mus musculus with 8 samples.

Results

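The genes examined mark the endothelial cells that line blood and lymph vessels. These 10 endothelial marker genes, Pecam1, Cdh5, Kdr, Flt1, Tek, Tie1, Egfl7, Eng, Vwf and Flt4, were followed in epididymal white adipose tissue, the fat pad beside the epididymis of male mice. The members were taken by name, after Ensembl gene identifiers had been matched to mouse symbols, and all 10 were found among the 34866 genes of the deposited table. Both groups carried loxP sites in both copies of the aromatase gene (Aromatase flox/flox). The 4 control samples carried no other allele named in the labels, and the 4 knockout samples also carried aP2-Cre (aP2-Cre;Aromatase flox/flox). Aromatase, encoded by Cyp19a1, turns androgens into oestrogens, and the study looked for genes downstream of it in fat that act on phosphorus metabolism. The aP2 promoter comes from Fabp4, a gene for a lipid carrier protein, and is known to be active in adipocytes and also in capillary endothelium and macrophages, so Cre is not restricted to adipocytes. A group with aP2-Cre and no loxP sites was not analysed here, and the effect of the transgene cannot be told apart from that of the deletion. The labels give no age and do not say whether samples came from separate animals, so p-values measure only the spread between these samples.

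Blood vessels run between the adipocytes of a fat pad, and their endothelial cells deliver lipids and hormones and control which cells leave the blood. Vascular endothelial growth factors act on the receptor kinases encoded by Kdr, Flt1 and Flt4. Angiopoietins act on the Tek receptor, with which Tie1 cooperates, and steady signalling through Tek keeps vessels quiet and tight. Pecam1 and Cdh5 encode proteins that join neighbouring endothelial cells, Eng a coreceptor for ligands of the bone morphogenetic protein and TGF-beta family, Egfl7 a protein that endothelial cells secrete, and Vwf the factor by which platelets hold on to a damaged vessel wall.

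Regulatory sequence of the members is shown first, since the members are markers of one cell type. Factors of the ETS family are known to act at endothelial genes and bind sites around the letters GGAA. RefSeq (GRCm38.p6) gave 9 promoters for 7 members (Kdr, Flt1, Tek, Tie1, Egfl7 with 3 starts, Eng and Flt4). In the 250 bases before each start the letters AGGAAGT, on either strand, occurred at 4 of the 9 starts, those of Flt1 and Eng and 2 of the Egfl7 starts, and in 7.69% of all 32851 promoters of that length. Counted by gene, 3 of the 7 members held it. For Tie1 and Flt4 all 90 bases from 100 to 11 before the start lie in annotated exons of the same gene. The shorter GGAAG, which every AGGAAGT contains, occurred at 7 of the 9 starts and in 64.1% of all promoters. The letters AGATAA, of the kind GATA factors bind, occurred at none of the 9 and in 9.99% of all. The stretch from 100 to 11 bases before the start is printed in the direction of the gene for 3 starts that hold AGGAAGT or its reverse complement, in capitals, and for Tek, which holds no GGAAG in its 250 bases. The Tek stretch does hold TTCC, which is GGAA on the other strand. The windows are chr5:147726022-147726111 on the minus strand for Flt1, and on the plus strand chr2:26583765-26583854 for Egfl7, chr2:32646495-32646584 for Eng and chr4:94739189-94739278 for Tek.
Flt1: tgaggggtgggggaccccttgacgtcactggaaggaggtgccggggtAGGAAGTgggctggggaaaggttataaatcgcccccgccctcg
Egfl7: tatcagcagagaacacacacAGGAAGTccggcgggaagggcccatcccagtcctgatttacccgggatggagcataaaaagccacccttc
Eng: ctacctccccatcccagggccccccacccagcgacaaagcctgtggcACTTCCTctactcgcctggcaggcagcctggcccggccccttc
Tek: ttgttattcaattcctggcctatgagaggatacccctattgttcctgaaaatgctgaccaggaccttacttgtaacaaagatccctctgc
The Egfl7 gene also hosts an endothelial microRNA, miR-126a, at chr2:26591402-26591423 on the same strand, outside the exons of its coding transcripts. Its mature 3p sequence is shown with the seed, bases 2 to 8, in capitals; these libraries, which start from poly(A) tails, did not measure it.
miR-126a-3p: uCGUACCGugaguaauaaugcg

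The libraries held 1538427 to 3053565 estimated counts, the smallest being control replicate 4. Levels are given as CPM, the estimated count divided by the TMM-scaled library size and brought to a common total, and are compared between libraries and not between genes, because reads from the 3′ end of a transcript depend on each gene's own priming site. Cyp19a1 itself had estimated counts of 2.003, 1, 5.017 and 1 in the control libraries and of 0, 4, 2.08 and 1.592 in the knockout libraries, each in the order of replicates 1 to 4, too few for the low-count filter, so the deletion could not be checked. The adipocyte markers Adipoq and Fabp4 were abundant in all 8 libraries (2110 to 3810 and 13900 to 22100 CPM), and of 7 epididymis and vas deferens markers 4 were at 0 everywhere. The highest level among the others was that of Adam7, an epididymis gene, at 8.53 CPM in knockout replicate 3 and 3.77 CPM in control replicate 2.

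None of the 10 endothelial markers passed the test for a difference between the genotypes. In edgeR's quasi-likelihood test 0 of 10 passed an adjusted p of 0.05, where 21 of 12480 tested genes, or 0.168%, did. One member, Vwf, had an unadjusted p under 0.05, against 6.39% of all tested genes. DESeq2 and limma-voom with quality weights likewise passed 0 of 10 and gave an unadjusted p under 0.05 for Vwf alone. Without the low-count filter, and with the replicate number as a block, 0 members had an unadjusted edgeR p under 0.05. The control and knockout libraries overlapped for each of the 10 genes, while 4.24% of all tested genes showed no overlap. The median log2 fold change, knockout over control, was 0.12 over the members and 0.00 over all tested genes, with 8 members above 0 and 2 below. Without control replicate 4 that median was -0.02, with 4 above 0 and 6 below. In bulk tissue fewer endothelial cells and less RNA per cell cannot be told apart.

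**Figure D1:**
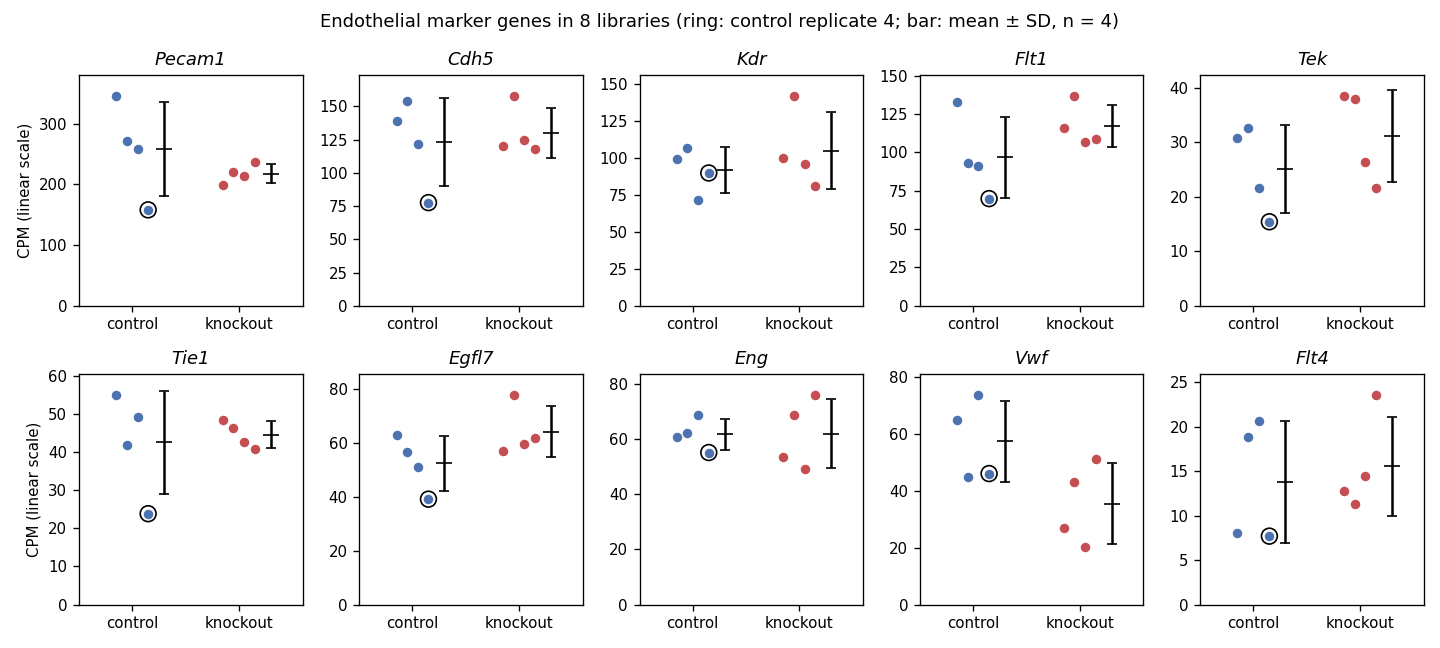
CPM (linear axis from 0) of each of the 10 endothelial markers in the 4 control and 4 knockout libraries; points are libraries, the ring marks control replicate 4 and bars give the mean ± SD (n = 4). The groups overlap in every panel, and control replicate 4 is the lowest of the 8 points in 7 of the 10.

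The junction genes were both abundant. Pecam1, also present on platelets and many leukocytes (chromosome 11, 106654217 to 106750628), was at 346, 271, 258 and 158 CPM in the control and at 199, 221, 213 and 237 CPM in the knockout libraries (replicates 1 to 4 in order, here and below). Controls 1 to 3 lay above every knockout library and control 4 below every one. The group means were 258 ± 77.4 and 217 ± 15.9 CPM (SD, n = 4), which gives a log2 fold change of -0.25 (standard error, SE, 0.19, 95% interval -0.66 to 0.15, edgeR adjusted p = 0.915). Without control replicate 4 the log2 fold change was -0.43 (95% interval -0.69 to -0.16, unadjusted p = 0.00378, edgeR adjusted p = 0.302), a larger difference that still missed the threshold; in that fit 7.24% of all genes had an unadjusted p under 0.05. Without control replicate 1, the highest library, it was -0.08 (unadjusted p = 0.649, edgeR adjusted p = 0.97), so the size of the Pecam1 difference rested on single control libraries. One annotated Pecam1 transcript, a retained-intron form, holds a run of 43 A, and among the 56 genes tested whose transcripts hold at least 31 A in a row the median was -0.30 on the log2 scale, 83.9% of them being lower in the knockout. Over the 12382 genes with shorter runs the median was 0.00, with 50.1% lower, and 4 of the 6 genes called lower belong to the 56; the part of such runs in the Pecam1 values was not tested. The longest run in any other member was 18, in Vwf.

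Cdh5 encodes VE-cadherin, the cadherin of endothelial junctions, and is the most cell-specific of the pair (chromosome 8, 104101625 to 104144511). It was at 139, 154, 122 and 77.6 CPM in the control and at 120, 158, 125 and 118 CPM in the knockout libraries. Control replicate 4 was the lowest of all, and the other 7 libraries lay within 118 to 158 CPM. The means were 123 ± 33.0 and 130 ± 18.8 CPM (SD, n = 4; log2 fold change 0.07, 95% interval -0.32 to 0.46, edgeR adjusted p = 0.982). The interval leaves room for a knockout level between 0.801 and 1.38 times that of the control.

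Of the 3 VEGF receptor genes none differed beyond its spread. Kdr, the main signalling receptor for VEGF-A (chromosome 5, 75932827 to 75978458), was at 99.2, 107, 71.3 and 89.8 CPM in the control and at 100, 142, 96.2 and 81.0 CPM in the knockout libraries. Here knockout replicate 2 stood highest and control replicate 3 lowest, and control replicate 4 lay among the rest. The log2 fold change was 0.19 (SE 0.17, 95% interval -0.19 to 0.56, edgeR adjusted p = 0.933). It was 0.01 without knockout replicate 2 and 0.08 without control replicate 3. Flt1 encodes the receptor that binds VEGF-A tightly and in its soluble form traps it (chromosome 5, 147561604 to 147726011). It was at 133, 93.4, 90.9 and 69.9 CPM in the control and at 116, 137, 107 and 109 CPM in the knockout libraries. All 4 knockout libraries lay above 3 of the controls, and control replicate 1 lay among them. The log2 fold change was 0.26 (SE 0.17, 95% interval -0.09 to 0.62, edgeR adjusted p = 0.903). It was 0.14 without control replicate 4 and 0.46 without control replicate 1 (unadjusted p = 0.00757, edgeR adjusted p = 0.613). The counts are per gene and do not separate the soluble from the membrane form.

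Flt4, the receptor for VEGF-C and VEGF-D that marks lymphatic endothelium in adult tissue (chromosome 11, 49609263 to 49652739), was the most thinly counted member, with 12 to 72 estimated counts a library. It was at 8.04, 18.8, 20.6 and 7.69 CPM in the control and at 12.8, 11.3, 14.4 and 23.6 CPM in the knockout libraries. Control replicates 1 and 4 stood together at the low end, so low Flt4 was not particular to control replicate 4. The log2 fold change was 0.17 (SE 0.35, 95% interval -0.59 to 0.93, edgeR adjusted p = 0.975), which leaves room for 0.663 to 1.91 times the control level.

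The angiopoietin receptor genes did not pass either. Tek, expressed in endothelium and in a subset of macrophages (chromosome 4, 94739289 to 94874976), was at 30.7, 32.6, 21.5 and 15.4 CPM in the control and at 38.5, 37.9, 26.4 and 21.6 CPM in the knockout libraries. Knockout replicates 1 and 2 were the highest and control replicate 4 the lowest, with the others interleaved. The log2 fold change was 0.28 (SE 0.25, 95% interval -0.26 to 0.81, edgeR adjusted p = 0.928). Its relative Tie1 (chromosome 4, 118471191 to 118490061) was at 55, 41.9, 49.1 and 23.8 CPM in the control and at 48.4, 46.3, 42.5 and 40.8 CPM in the knockout libraries. Control replicate 4 held less than any other library, at 0.484 times the median of the other 3 controls. The log2 fold change of Tie1 was 0.05 (95% interval -0.38 to 0.48, edgeR adjusted p = 0.985) and without control replicate 4 it was -0.13 (95% interval -0.45 to 0.19).

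Egfl7 (chromosome 2, 26580014 to 26593120) was at 62.9, 56.5, 51.1 and 39.1 CPM in the control and at 56.8, 77.9, 59.7 and 61.7 CPM in the knockout libraries. Every knockout library lay above 3 of the 4 controls, and control replicate 1 lay above 3 of the 4 knockouts. The log2 fold change was 0.28 (SE 0.16, 95% interval -0.06 to 0.61, edgeR adjusted p = 0.863). Its exons share 264 of 3581 bases with those of the gene model Gm20532 on the same strand and 64 with Agpat2, an adipocyte lipid-synthesis gene on the opposite strand, and use of strand in the counting is not given in the sources used here. Eng, also expressed by stromal cells and macrophages (chromosome 2, 32646595 to 32682669), was the steadiest member in the control group, with 60.8, 62.3, 68.6 and 55.1 CPM, against 53.6, 68.6, 49.3 and 76.1 CPM in the knockout libraries. The knockout libraries lay on both sides of the controls, and the log2 fold change was 0.00 (SE 0.15, 95% interval -0.32 to 0.33, edgeR adjusted p = 0.999).

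Vwf had the largest difference of the 10 and the smallest p. The gene, expressed in endothelium and in megakaryocytes (chromosome 6, 125546774 to 125686679), was at 64.8, 44.9, 73.9 and 46.1 CPM in the control and at 27.0, 43.2, 20.3 and 51.4 CPM in the knockout libraries. Knockout replicates 1 and 3 were below every control, replicate 2 just below the lowest control, and replicate 4 above control replicates 2 and 4. The means were 57.4 ± 14.2 and 35.5 ± 14.3 CPM (SD, n = 4), which gives a log2 fold change of -0.69 (SE 0.29, 95% interval -1.33 to -0.05, unadjusted p = 0.0361, edgeR adjusted p = 0.733). By p it ranked 615 of 12480. Without control replicate 4 the log2 fold change was -0.77 (edgeR adjusted p = 0.642), so the Vwf difference did not rest on that library. The unadjusted edgeR p of Vwf was 0.0819 without control replicate 1 and 0.0984 without control replicate 3. Without knockout replicates 1 and 3 in turn it was 0.0932 and 0.0595. It stayed under 0.05 on leaving out replicate 2 or 4 of either group. Among the listed platelet genes, Pf4 was at 57.1 to 95.4 CPM in the control and 75.1 to 102 CPM in the knockout libraries. The others were far lower over all 8: Gp1bb at 10.5 to 15.6, Ppbp at 0.776 to 6.86, Itga2b at 1.67 to 4.65 and Gp9 at 0 to 1.37 CPM. Pf4 was thus not matched by the other platelet genes, and the part of platelets in the Vwf values was not tested. Vwf shares 119 of its 16052 words of 31 bases with Mettl6, and 118 genes share at least 1.

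**Figure D2:**
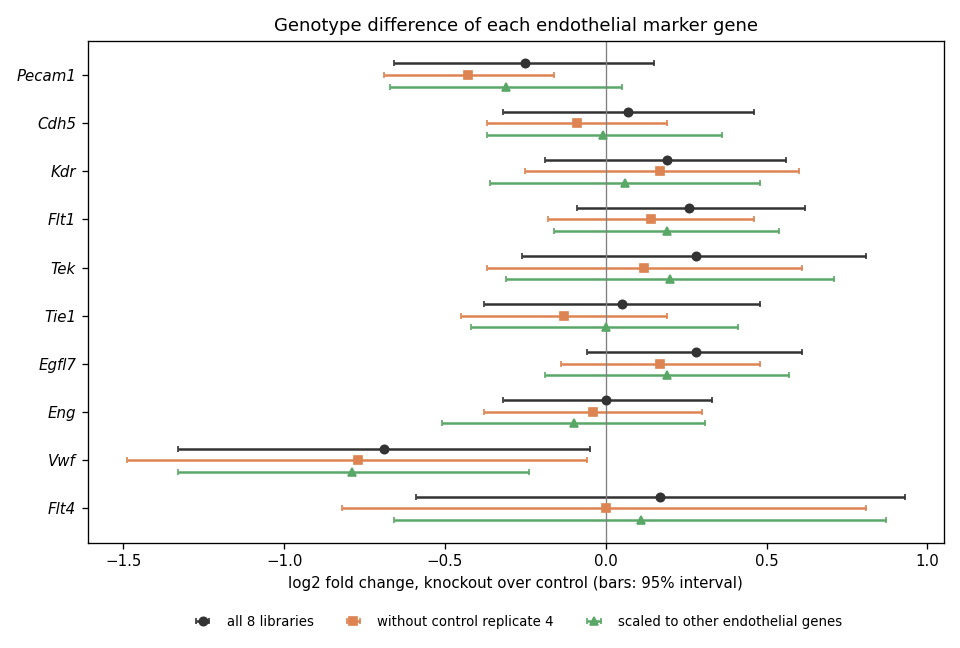
Log2 fold change, knockout over control, of each member with its 95% interval, from all 8 libraries, without control replicate 4, and with libraries scaled to the summed counts of 32 other endothelial genes. Most intervals span 0; that of Vwf lies below 0 in all 3 fits and that of Pecam1 only without control replicate 4.

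Control replicate 4 stood low for most members. It was the lowest of the 4 controls for 8 members (30.7% of all tested genes) and the lowest of all 8 libraries for 7 (18.3% of all tested genes). For those 7 genes, Pecam1, Cdh5, Flt1, Tek, Tie1, Egfl7 and Flt4, its level was 0.409 to 0.749 times the median of the other controls, and for Kdr, Eng and Vwf it was 0.713 to 0.905 times. The mean log2 CPM over the members was 6.12, 6.08, 6.02 and 5.47 in the control and 5.92, 6.17, 5.82 and 6.03 in the knockout libraries. The group means were 5.92 ± 0.31 and 5.98 ± 0.15 (SD, n = 4), and 6.07 for the control without replicate 4. Summed over 32 other endothelial genes the level in control replicate 4 was 1620 CPM, against 2089 to 2554 CPM in the other 7 libraries. Gene by gene, control replicate 4 was the lowest control for 20 of the 31 tested genes of that list and the lowest of all 8 libraries for 16. The same library was not low in 10 stromal markers, at 3861 CPM in a control range of 3339 to 3976, nor the lowest control in 11 mural cell markers, at 645.5 CPM in a range of 620.9 to 729.9. In the summed level of 10 adipocyte markers it was the lowest control, at 36600 CPM, though knockout replicates 3 and 4 were lower still, at 29270 and 31770 CPM. Gene by gene it was the lowest control for 2 of 10 stromal, 5 of 11 mural and 9 of 10 adipocyte markers. It was so too for 7 of 11 tested macrophage genes and 5 of 7 VEGF ligands and coreceptors. It was the lowest of all 8 libraries for 2 of the adipocyte markers. It was the lowest of all 8 libraries in the summed levels of the macrophage list (986 CPM), the VEGF ligands and coreceptors (500.3 CPM), the endoglin pathway (587.4 CPM) and the arterial genes (94.9 CPM), so low values there were not limited to the members. It was also the shallowest library, and the part of depth was not tested.

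**Figure D3:**
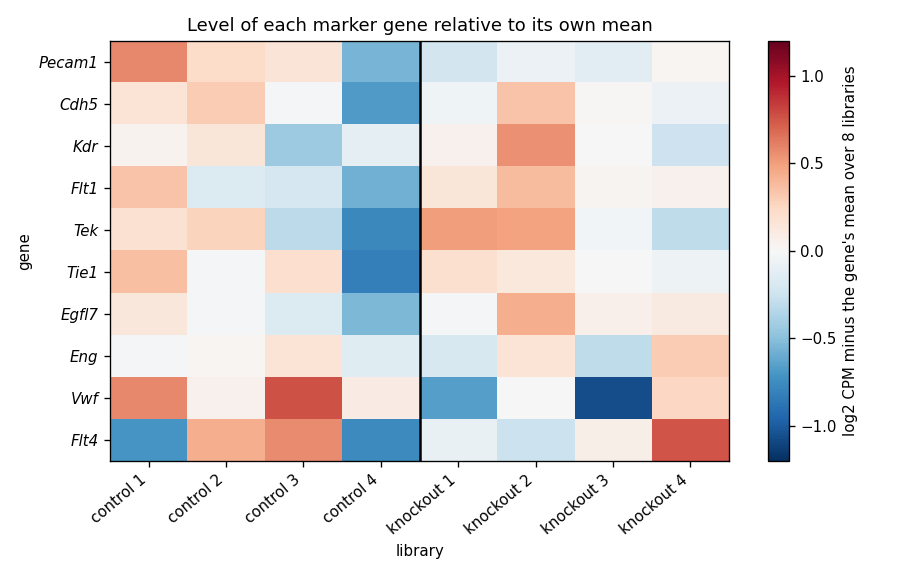
Log2 CPM of each member in each library minus that gene's mean over the 8 libraries (red higher, blue lower). Control replicate 4 is below the mean for all members but Vwf, and over all 8 libraries Vwf and Flt4 follow the other members least.

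The members did not all vary as a block. Over the 8 libraries the correlation of log2 CPM between pairs of members had a median of 0.38 over 45 pairs, from -0.40 to 0.93, and 0.12 without control replicate 4. Over all 8, Cdh5 followed the mean of the other 9 members most closely (r = 0.89, and 0.59 over the 7 without control replicate 4), then Tie1 (0.80 and 0.16) and Egfl7 (0.79 and 0.35). Vwf (0.04 and 0.29), Flt4 (0.15 and -0.54) and Kdr (0.19 and 0.12) followed it least over 8. Over 7 the order was different, with Eng highest at 0.61 and Flt4 and Tek (-0.07) lowest. Among 10007 other genes with a mean of 10 CPM or more, the 5 most like the members' mean standardised log2 CPM over the 8 libraries were Tinagl1, Pias2, Cavin1, Steap4 and Brk1 (r = 0.942 to 0.969), and after centring within genotype Svep1, Tinagl1, Hmox1, Tm2d1 and Mrpl30 (r = 0.960 to 0.972). They were picked as the highest of 10007 values of r over only 8 libraries. How high the top values would be by chance was not tested. These points share libraries and their scaling, and the correlations of these genes were not computed without control replicate 4. None of the 9 genes is on the list of other endothelial genes.

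Relative to other endothelial RNA no member passed either. When libraries were scaled to the summed counts of the 32 other endothelial genes, 0 of 10 members passed (0.168% of all tested genes did). Abundant genes weigh most in that sum. Its largest part was Tspan12, with control and knockout means of 366 and 350 CPM, where the list summed to 2160 and 2310 CPM. Under this scaling the median log2 fold change of all tested genes moved to -0.11 and that of the members to 0.03, with 5 above 0 and 5 below. As a share of that endothelial sum, Vwf was 2.60, 2.02, 3.20 and 2.85% in the control and 1.12, 1.69, 0.971 and 2.34% in the knockout libraries (log2 fold change -0.79, 95% interval -1.33 to -0.24, unadjusted p = 0.00696, edgeR adjusted p = 0.769). Only knockout replicate 4 reached into the control range. Pecam1 was 13.9, 12.1, 11.2 and 9.75% in the control and 8.24, 8.65, 10.2 and 10.8% in the knockout libraries, overlapping at control replicate 4 (log2 fold change -0.31, edgeR adjusted p = 0.995).

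Genes around the members showed no call in the vessel lists. Of 32 other endothelial genes 31 were tested and 0 passed in edgeR, with a median log2 fold change of 0.06 (19 above 0, 12 below) and 2 at an unadjusted p under 0.05. The highest was Aplnr, the apelin receptor gene, at 0.56 (edgeR adjusted p = 0.815). The lowest was Sox18, a transcription factor gene of blood and lymph vessel development, at -0.91 (SE 0.51, edgeR adjusted p = 0.873). Sox18 was at 35.6, 25.9, 33.2 and 3.21 CPM in the control and at 11, 18.6, 11.6 and 12.1 CPM in the knockout libraries. Its 4 knockout libraries lay below controls 1 to 3 and above control 4. Without control replicate 4 Sox18 passed, at -1.24 on the log2 scale (SE 0.23, edgeR adjusted p = 0.0282; 0.339% of all genes tested in that fit passed), and in each of the other fits, with all libraries or without any other one, it did not.

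**Figure D4:**
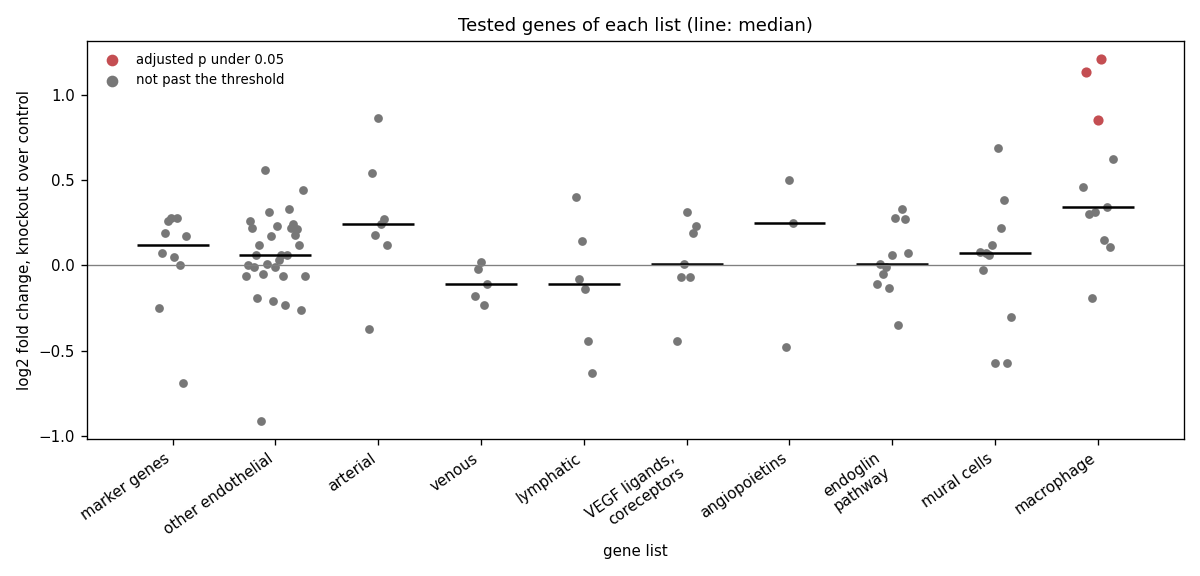
Log2 fold change, knockout over control, of every tested gene of each list (points; line: median). Genes past an adjusted p of 0.05 are red and occur here only in the macrophage list.

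Genes for ligands of the members' receptors gave no call. Of 7 genes for VEGF ligands and coreceptors 0 passed in edgeR and 1 had an unadjusted p under 0.05, with a median log2 fold change of 0.01. That gene was Vegfa, the ligand of Kdr and Flt1, at 126, 89.7, 117 and 80.6 CPM in the control and 69.4, 93.8, 74.4 and 69.2 CPM in the knockout libraries (log2 fold change -0.44, SE 0.16, unadjusted p = 0.0139, edgeR adjusted p = 0.619). Knockout replicate 2 lay within the control range and the other 3 below it. Vegfd, a ligand of Flt4, was the highest of the list at 0.31 (edgeR adjusted p = 0.922). Among the 3 angiopoietin genes 0 passed and 0 had an unadjusted p under 0.05; Angpt1, the activating ligand of Tek, was at -0.48 and Angpt2, known as its context-dependent antagonist, at 0.50 (edgeR adjusted p = 0.91 and 0.912). Angpt1 was at 45.3, 49.6, 21.7 and 17.4 CPM in the knockout libraries, 2 of them within the control range of 41.4 to 56.6 CPM and 2 below it. Angpt2 was thinly counted, at 2.85 to 9.56 CPM over all 8 libraries, and control replicate 4 was the lowest. Without control replicate 4 the log2 fold changes were -0.50 for Angpt1 and 0.30 for Angpt2. Of 13 genes of the pathway in which Eng takes part 11 were tested, 0 passed and 0 had an unadjusted p under 0.05; the ligand genes Bmp10, at 0 in all 8 libraries, and Gdf2, at 0 to 0.641 CPM, were too low to test, Smad7 was highest at 0.33 and Smad6 lowest at -0.35, both feedback inhibitors.

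Arterial, venous and lymphatic genes gave 0 calls in edgeR and 0 at an unadjusted p under 0.05, among 7, 5 and 6 tested. The arterial median was 0.24, from -0.37 for the connexin gene Gja4 to 0.86 for the Notch target Hey1, which was counted at 1.79 to 13.3 CPM. The venous median was -0.11, from -0.23 for Selp, the P-selectin gene, to 0.02 for Ackr1, a chemokine-binding receptor gene of venules. The lymphatic median was -0.11, from -0.63 for Reln to 0.40 for Prox1, the transcription factor that sets lymphatic identity. Control replicate 4 was the lowest control for 0 of the 6 lymphatic genes. For Ccl21a it stood at 73.6 CPM, next to 73.3 CPM in control replicate 1, and for the member Flt4 it was the lowest of all 8 libraries. Among 12 macrophage genes 11 were tested and 3 passed, all higher in the knockout. These were Cd68 at 1.13, Lyz2 at 0.85 and Ctss at 1.21 on the log2 scale (edgeR adjusted p = 0.0156, 0.00776 and 0.000666). The median of the list was 0.34, with 10 genes above 0 and 1 below, Cd163 at -0.19. The summed level of the list was 986 to 1126 CPM in the control and 1473 to 1905 CPM in the knockout libraries. The largest part of this sum was the called gene Lyz2, with group means of 379 and 682 CPM. Flt1, Tek, Eng and Pecam1 can also be expressed by macrophages or other leukocytes; the part of these cells in the members' values was not tested. Markers of the remaining cell types gave 0 calls in edgeR: the medians were 0.02 over 10 stromal genes (Pdgfra -0.30 to Col1a1 0.34), -0.08 over 6 mesothelial genes (Wt1 -0.35 to Lrrn4 0.31), -0.18 over 6 platelet and red cell genes (Hbb-bt -0.37 to Pf4 0.25) and -0.10 over 10 adipocyte genes (Retn -0.65 to Lep 0.29). Among them Retn alone had an unadjusted p under 0.05 (edgeR adjusted p = 0.0731), and DESeq2 and limma-voom called it. Neither tool called any gene of the vessel lists.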

How the data were processed

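RNA from 8 samples was made into libraries by BRB-seq, which primes cDNA at the poly(A) tail, with 10 PCR cycles and a 51-base insert read, per the labels' protocols. The authors deposited estimated counts per gene, unnormalized, made with Salmon on GRCm38 per the submitters' processing notes; version, annotation and use of molecular identifiers are not given in the sources used here. Of the values above 0, 59.6% were whole within a tolerance of 0.000001. Symbols were found for 34652 of 34866 identifiers (GENCODE M21, GRCm38).

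Counts were rounded and fitted with edgeR 4.0.16 (R 4.3.3): TMM factors, filterByExpr (12480 genes kept), robust quasi-likelihood F test, genotype as the only term, Benjamini-Hochberg adjustment over all tested genes, threshold 0.05. The design had been written for whole counts. All 10 members passed the low-count filter. A count of 0 allows up to 3 counts, 0.984 to 1.92 CPM; floors and counting error ignore PCR duplicates. Alternatives were upper-quartile or RLE scaling, no filter, DESeq2 1.42.0, limma-voom (limma 3.58.1), the replicate number as a block, scaling to other endothelial genes, and leaving out each library. Members and lists were chosen with earlier results of these data known. Genes named are all members, the called or else the highest and lowest genes of each list, and the 5 genes most like the members. Sox18 without control replicate 4, Gp9, Gp1bb, Ppbp, Itga2b, Bmp10, Gdf2, Adam7, Cd163, Ccl21a and the mural genes were picked after their values were seen.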

Additional observations from a re-analysis of the deposited data

Results flagged for a closer look

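Control replicate 4 stood apart in the mean log2 CPM over the 10 members. Its value was 5.47, and those of control replicates 1 to 3 lay between 6.02 and 6.12, so the gap to the nearest library took up 0.856 of the group's range and exceeded Dixon's critical value for 4 samples. It was the only such library in 52 groups of values examined, where chance gives 2.6.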

How the results depend on the processing

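No member passed the threshold in any of the 15 alternatives run, and 0 to 2 had an unadjusted p under 0.05. The members' median log2 fold change, 0.12, lay between -0.02 and 0.22 on leaving out 1 library (-0.02 without control replicate 4, 0.02 without knockout replicate 2). The log2 fold changes of Pecam1, Kdr, Flt1, Tek, Egfl7 and Vwf kept their sign in all 15, though not their size: leaving out 1 library gave -0.43 to -0.08 for Pecam1, 0.006 to 0.29 for Kdr, 0.14 to 0.46 for Flt1, 0.12 to 0.42 for Tek, 0.17 to 0.38 for Egfl7 and -0.94 to -0.50 for Vwf. Those of the other 4 turned in some, without a call: the same omissions gave -0.089 to 0.19 for Cdh5, -0.13 to 0.20 for Tie1, -0.12 to 0.10 for Eng and -0.12 to 0.42 for Flt4. Scaling to other endothelial genes gave -0.006 for Cdh5, -0.003 for Tie1 and -0.101 for Eng, and Eng was at -0.004 with upper-quartile factors, -0.054 with limma-voom and -0.016 with the replicate block. The cause was not tested.

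Over all genes, 21 passed; without the low-count filter 58 did (37 higher, 21 lower), with DESeq2 55 (28 and 27), with the replicate block 6, and with 1 library left out 4 (control replicate 2 left out) to 43 (control replicate 4 left out). Of the other lists' genes 3 passed, 1 with the block and 1 to 5 with 1 library left out; the 5, without control replicate 4, were Cd68, Ctss, Lyz2, Retn and Sox18. Scaling to other endothelial genes kept the number at 21 but with 8 higher and 13 lower in place of 15 and 6. Deviations of same-numbered libraries correlated at 0.25, -0.06, -0.01 and -0.24. Whether the numbers pair samples cannot be told from this, because paired samples may share little. The main fit used no pairing. For Flt4, at 36.4 counts a library on average, counting error alone is 16.6% of the level, against 4.12% for Pecam1.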

Other observations

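The mural cells that wrap the vessels, pericytes and smooth muscle, were represented by 11 tested genes, of which 0 passed in edgeR. At an unadjusted edgeR p under 0.05 there were 2, in opposite directions, against 6.39% of all tested genes. The groups did not overlap for 1 of the 11, against 4.24% of all tested genes. Notch3, a receptor gene of arterial smooth muscle and pericytes, was at 23.4, 21.3, 19.7 and 12.2 CPM in the control and at 38.0, 29.9, 33.0 and 25.9 CPM in the knockout libraries, with no overlap between the groups (log2 fold change 0.69, standard error 0.21, unadjusted p = 0.00485, edgeR adjusted p = 0.45). Tagln, a smooth muscle actin-binding protein gene, was at 65.0, 44.8, 55.2 and 34.6 CPM in the control and at 30.2, 39.5, 29.5 and 36.2 CPM in the knockout libraries (log2 fold change -0.57, standard error 0.19, unadjusted p = 0.00847, edgeR adjusted p = 0.514). Both were singled out among the 11 after their values were seen. The pericyte marker Rgs5 was at 134 CPM in control replicate 4, the lowest of the 8 libraries, in which the others ranged from 158 to 308 CPM.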
